A study of Mus musculus with 2 samples.

Results

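Otx2, Pou3f1, Zic2, Zic5, Sall2, Tead2, Pax6, En2 and Nes are genes of the formative epiblast and of early neural tissue. Their RNA was measured in embryoid bodies, the aggregates in which embryonic stem cells start to differentiate. Members were chosen by name: every probe set whose platform annotation gives exactly 1 gene symbol, equal to one of these 9 genes, was taken, which gave 18 of the 45101 probe sets on the array. The embryoid bodies came from hanging drops of CGR8, a mouse embryonic stem cell line of strain 129 grown without feeder cells, and both groups share that line, its serum and LIF culture and the drop step. The control group (1 array) had differentiation medium only, with no agent, and the FGF10 group (1 array) had the same medium with recombinant FGF10, a secreted fibroblast growth factor, at 100 ng/ml. The sample titles give day 2 for both, whereas the design text has 2-day-old bodies treated and RNA taken 24 h later, so the exact stage is not settled. With 1 array per group no test can be made and variation from culture to culture is unknown, so each ratio describes these arrays.

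When embryonic stem cells leave the naive state they pass through a formative state, in which Otx2 and Pou3f1 rise and Otx2 leads Oct4 to new enhancers. From there cells can become neural tissue or enter the primitive streak, the source of mesoderm and endoderm. FGF signalling through ERK is known to drive exit from the naive state. Pax6, En2 and Nes are used as markers of neural progenitors that arise later than the formative state.

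Zic5 and its chromosomal neighbour Zic2, both zinc finger genes, were higher on the FGF10 array, and the POU factor gene Pou3f1 was lower. Otx2 and Tead2 were slightly higher and Sall2 somewhat lower, all within 1.5-fold. Nes was also within 1.5-fold, and Pax6 and En2 were lower at dim signals near the limit of what was measured. No member differed by 2-fold.

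The RefSeq promoter table (assembly GRCm38.p6, 250 bases before to 50 after each start) held windows for 6 of the 9 members, and 11 windows in all. They were searched on both strands for the TEAD motif GGAATG, the OTX motif GGATTA, the POU octamer ATGCAAAT and the TCF and LEF motif CTTTGAT, since TEAD, OTX and POU factors are themselves members. No match overlapped another. Of the 11 windows, 2 held a match. The first is the Zic5 window, shown because Zic5 has the most probe sets above the filter and was higher on each of them; the bases before its start are at chr14:122465659-122465908 on the minus strand. Capitals mark the TEAD motif, read here on the opposite strand, which begins 165 bases before the start. The second is 1 of the 4 Otx2 windows, of which a stretch at chr14:48665303-48665332 on the minus strand is given with the OTX motif in capitals, 211 bases before that start.
Zic5: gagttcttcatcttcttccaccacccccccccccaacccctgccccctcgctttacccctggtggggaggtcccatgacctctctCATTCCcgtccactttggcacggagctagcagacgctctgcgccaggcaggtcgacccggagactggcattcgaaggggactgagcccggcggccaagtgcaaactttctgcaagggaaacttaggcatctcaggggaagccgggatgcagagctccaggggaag
Otx2: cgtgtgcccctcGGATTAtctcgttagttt
Of all 32851 promoter windows in the table, 14.7% held the TEAD motif, 7.06% the OTX motif, 1.74% the octamer and 3.73% the TCF and LEF motif. The windows of Pax6, Nes, Tead2 and Sall2 and the other Otx2 windows held none of these letters. A match is a description of the sequence and is no evidence of binding in these cells.

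Values are MAS5 signals, a linear brightness per probe set, and ratios are log2 of the FGF10 over the control signal, centred so that the median kept probe set is at 0. A probe set was kept when its mean signal over both arrays reached 76.35, the median mean signal once chip controls are left out. Of the 18 member probe sets, 13 were kept and 5 fell below that filter, 4 of Pax6 and 1 of Nes. Each ratio is given ± the technical SD of probe sets of like signal, which is the spread between the brightest and second brightest probe set of the same gene. It was 0.13 in the brightest of 4 equal signal classes of kept probe sets, 0.20 in the next, 0.28 in the next and 0.38 in the dimmest. This is error within the arrays and leaves out culture to culture variation. In bulk RNA, fewer cells of a type and less RNA per cell cannot be told apart.

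**Figure D1:**
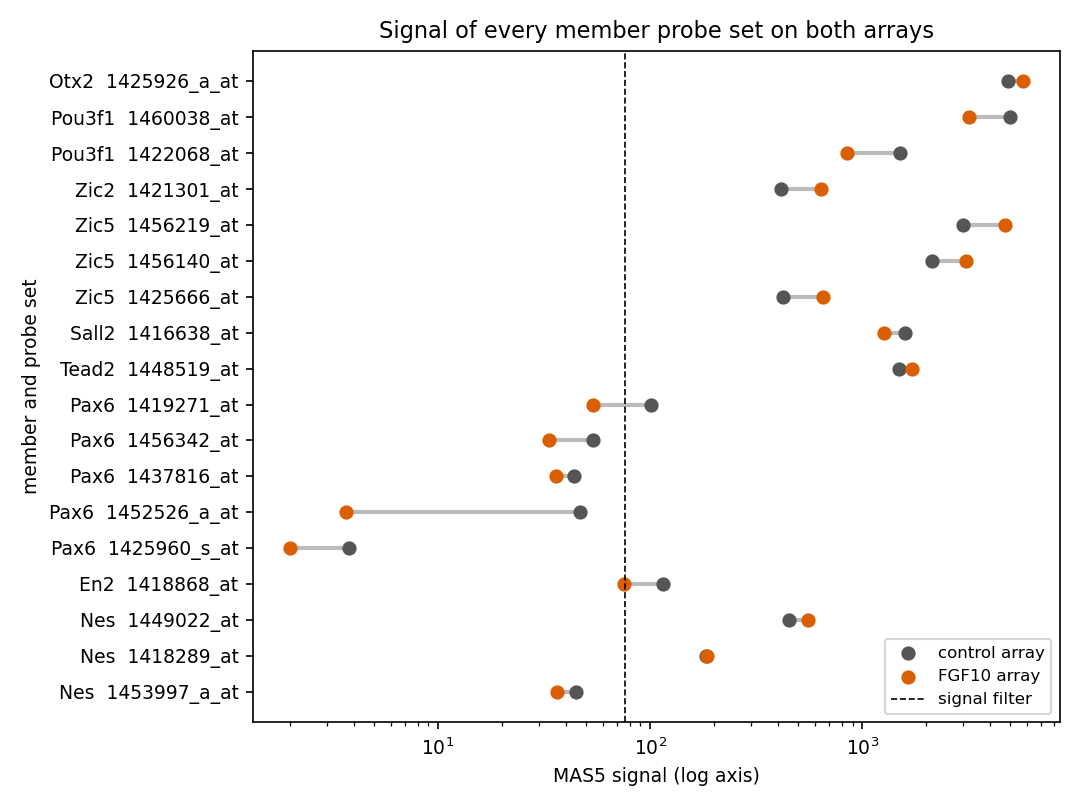
MAS5 signal (log axis) of the 18 member probe sets on the control array (grey) and the FGF10 array (orange), with the signal filter of 76.35 as a dashed line. The probe sets of Zic2 and Zic5 lie to the right on the FGF10 array and those of Pou3f1 to the left, while 4 of the 5 Pax6 probe sets are under the filter on both arrays.

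Of the 9 members, 2 were at least 1.5-fold higher by their brightest probe set and 3 at least 1.5-fold lower. Among the 11122 measured genes of the array, 5.41% passed 1.5-fold upward and 4.86% passed it downward. The members were chosen with earlier results of these data known, so their counts are no independent finding. Of those 9, 5 lay above 0 and 4 below, against 46.5% of all genes above 0. The members' median was 0.16, beside -0.03 for all genes, and it became -0.01 with second brightest probe sets and -0.10 when Otx2, read only by a probe set of the _a_at type, dropped out. At the 2-fold level, which 1.32% of genes passed upward and 1.29% downward, 0 members were counted. Pax6 and En2, among the 3 lower members, reached the filter only on the control array and so had to read lower; with both arrays required to pass it, 1 lower member was left, Pou3f1.

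Pou3f1 (also called Oct6) encodes a POU factor of the formative and primed epiblast that also promotes neural fate. Its brighter probe set, 1460038_at, read 4966.8 in the control and 3192.2 with FGF10. That is a log2 ratio of -0.67 ± 0.13, or 1.59-fold lower. The other probe set, 1422068_at, read 1499.2 and 848.2, a ratio of -0.86 ± 0.20. Both readings were lower with FGF10, each by more than the technical SD of its signal class. Among kept probe sets of the brightest class 1.42% were at least 1.5-fold lower, and in the next class 2.08%. The brightest class as a whole had a median ratio of -0.10. After loess or quantile normalization, which remove that shift of bright probe sets, the brighter reading was -0.58 in both cases, just within 1.5-fold.

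Otx2 encodes a homeobox factor that starts the move from naive to formative state and later patterns the forebrain. Its only probe set, 1425926_a_at, read 4866.7 in the control and 5735.9 with FGF10. The ratio of 0.20 ± 0.13 is a 1.15-fold difference, within 1.5-fold and near the technical SD. It lay inside the 5th to 95th percentile range of the brightest class, which ran from -0.43 to 0.37. After loess it was 0.31 and after quantile normalization 0.30. Otx2 and Pou3f1 thus differed in sign on these arrays.

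Zic5 and Zic2 encode zinc finger factors of the Zic family, which act in the epiblast and in neural tube closure. In the RefSeq gene table they are neighbours, with the noncoding gene 2610035F20Rik between them. The brightest Zic5 probe set, 1456219_at, read 2976 in the control and 4690.8 with FGF10, a ratio of 0.62 ± 0.13 or 1.54-fold. The next, 1456140_at, read 2130.4 and 3078.6 (0.50 ± 0.13), and 1425666_at read 422 and 656.7 (0.60 ± 0.20). All 3 Zic5 readings were higher with FGF10, and 2 of them passed 1.5-fold. In the brightest class of probe sets 1.53% were at least 1.5-fold higher, and in the next class 4.79%.

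Zic2 was read by 1 probe set, 1421301_at, with signals of 415 and 639.4. Its ratio of 0.59 ± 0.20 sits at the threshold of 1.5-fold (0.58 on this scale), so that loess (0.54), quantile normalization (0.55) and an added offset (0.57) each left it just within 1.5-fold. The noncoding gene between the pair was dim, at 31.8 and 48.8, both under the filter. Pcca, the next protein-coding gene beyond Zic2 and an enzyme subunit of propionate breakdown, read 1103.4 and 1140.7 (0.01). The 4 Zic probe sets were thus higher by similar amounts, between 0.50 and 0.62, whereas the kept probe set of this flanking gene was level.

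**Figure D2:**
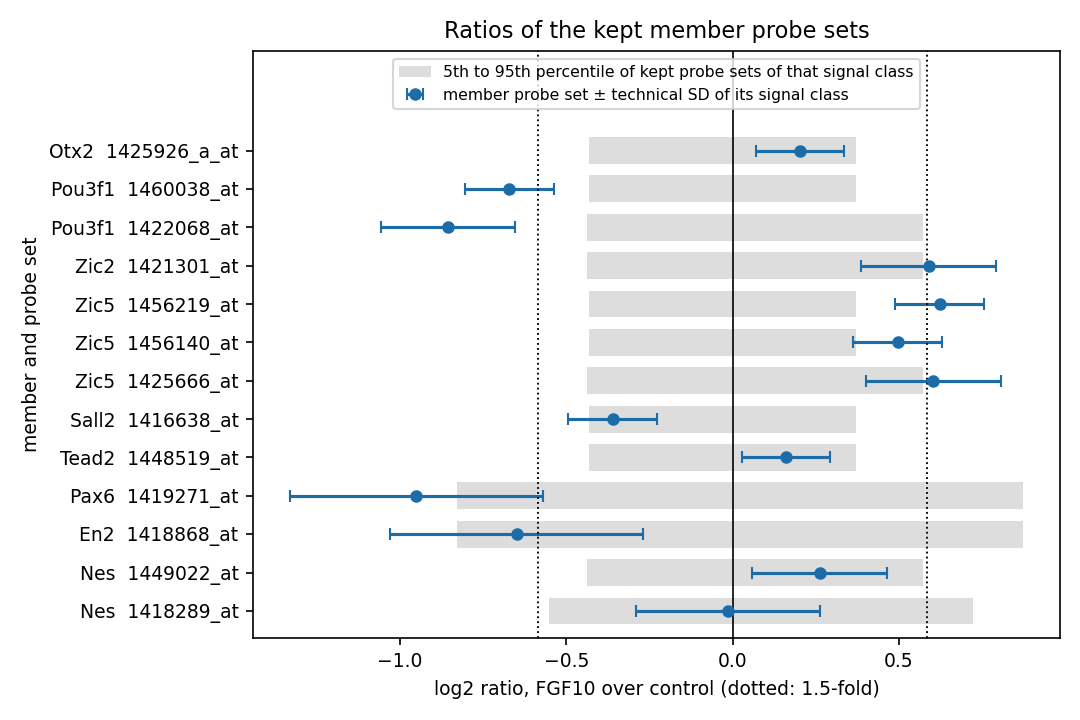
Log2 ratio (FGF10 over control) of the 13 kept member probe sets, as points with the technical SD of their signal class as bars, over grey bands for the 5th to 95th percentile of all kept probe sets in that class. Dotted lines are at 1.5-fold: all 4 Zic points and both Pou3f1 points lie outside their bands, Pax6 lies outside the wide band of dim probe sets, and Otx2, Sall2, Tead2, En2 and Nes lie inside theirs. Pax6 and En2 reached the filter only on the control array and so had to read lower. With its dim signal raised to the filter, Pax6 would be at -0.44, inside the band of -0.83 to 0.87.

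Sall2 encodes a zinc finger transcription factor of the spalt family that is expressed in embryonic neural tissue. Its probe set, 1416638_at, read 1587.4 in the control and 1266.2 with FGF10, a ratio of -0.36 ± 0.13. That is 1.28-fold lower and inside the range of its signal class. Its paralogs Sall1 and Sall4, the latter a pluripotency factor, were at 0.33 and 0.26, and the other kept probe set of Sall4 was at 0.67. Sall3 read 35.6 and 165.3 on its kept probe set (2.18); its control signal was under the filter, and with that signal raised to 76.35 the ratio was 1.08.

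Tead2 encodes a DNA-binding partner of the Hippo pathway effector YAP and is the TEAD gene known from the earliest embryo and neural precursors. Its probe set, 1448519_at, read 1494.8 and 1710.8, a ratio of 0.16 ± 0.13. This 1.12-fold difference is close to the technical SD. The paralogs Tead1 (648.5 and 830, ratio 0.32) and Tead3 (201.6 and 174.2, ratio -0.25) were also within 1.5-fold, and Tead4 was below the filter. YAP and TEAD cofactors and targets had a median of 0.16 over 12 measured genes, with 2 past 1.5-fold upward and 0 downward. The higher genes were Ajuba, a LIM protein that restrains the Hippo kinases (2437.6 and 3890.2, ratio 0.64), and Axl, a receptor tyrosine kinase (76 and 121.5, ratio 0.64). Axl reached the filter only on the FGF10 array and so had to read higher. With both arrays required to pass the filter, 1 gene of this list was higher. The targets Ccn1 (0.18) and Ccn2 (-0.28) differed in sign, and Yap1 was at 0.26.

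Nes encodes nestin, an intermediate filament protein of neural progenitors that is also found in endothelial and muscle progenitors. Its brightest probe set, 1449022_at, read 452.1 and 554.9 (0.26 ± 0.20). The next, 1418289_at, read 182.6 and 185.2 (-0.01 ± 0.28, in a signal class where 8.56% of probe sets passed 1.5-fold upward and 4.35% downward), and 1453997_a_at lay under the filter at 44.7 and 36.2. Both kept Nes signals were slightly higher with FGF10 as deposited, and the second ratio falls below 0 only through the centring by 0.034. The kept probe sets of Pou3f1 and of Zic5 each shared a sign; of 5213 genes with at least 2 kept probe sets, the brightest pair shared a sign in 65.7%. Of the markers of endothelial and muscle progenitors, 6 of 8 were below the filter, and the measured Tek and Des (-0.28) summed to 214.1 in the control and 154.5 with FGF10. Tek (107.3 and 64.5) reached the filter only on the control array and so had to read lower; with its dim signal raised to the filter its ratio was -0.53, within 1.5-fold. The part of such cells in the Nes reading was not tested.

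Pax6 and En2 are homeobox genes of the developing brain, Pax6 of forebrain, eye and neural progenitors and En2 of the midbrain and hindbrain boundary. The brightest Pax6 probe set, 1419271_at, read 101.2 in the control and 53.6 with FGF10 (-0.95 ± 0.38). The other 4 lay under the filter on both arrays: 53.5 and 33.2 on 1456342_at, 43.6 and 35.8 on 1437816_at, 46.9 and 3.7 on 1452526_a_at, and 3.8 and 2 on 1425960_s_at. All 5 read lower with FGF10, but no size can be given for signals this dim. With signals under 76.35 raised to that value, the brightest Pax6 ratio was -0.44, within 1.5-fold.

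En2 was read by 1418868_at at 115 and 75.1 (-0.65 ± 0.38), and its ratio was -0.63 with the FGF10 signal raised to the filter. Both genes reached the filter only on the control array, and a probe set kept that way has to read lower with FGF10. In the dimmest class of kept probe sets, 11% were at least 1.5-fold lower and 13.2% at least 1.5-fold higher. The antisense gene Pax6os1 was dim as well, at 16.1 and 2.4.

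Of 33 early neural and neural tube genes with a named probe set, other than the members, 19 were below the filter on every probe set. These included Sox1 (40.7 and 2.4), Hes5 (41.4 and 14.7) and Dcx (44.9 and 4.8), which read lower with FGF10, and Sox21 (46.2 and 92.8), Gbx2 (45 and 66.6) and Pax7 (38.5 and 62.6), which read higher. Without the filter that list had 7 genes at least 1.5-fold higher and 5 lower, and signals this dim give no size. The share of all genes past 1.5-fold without the filter was not counted, so these numbers have no baseline. No gene of that list read exactly 0, which says nothing of presence, as the lowest signal on each array was 0.1. Several of those measured are also expressed outside neural tissue, such as Sox2 (5812.7 and 5941.8), Gmnn (5366.3 and 4667) and Vim (2866.4 and 4215.4).

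The 14 measured genes of that list had a median of 0.0019, and 2 of them passed 1.5-fold upward and 0 downward. Of all measured genes, 5.41% passed it upward and 4.86% downward. Sox11, a neural and mesenchymal SoxC factor, read 1805.9 and 3229.2 (0.80, with 0.27 to 1.01 over its 6 probe sets). Zfp521, a zinc finger factor that promotes neural conversion, read 226.4 and 498.7 (1.11), and its other probe set was at 0.17. Among neural crest markers 3 of 9 with a named probe set were measured and all were within 1.5-fold. Of the members' paralogs only 6 of 20 were measured, the Sall and Tead genes above and Synm, an intermediate filament gene (91 and 90.8, ratio -0.04).

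Of the other formative and primed epiblast genes, 17 were within 1.5-fold. The 20 measured had a median of -0.05, with 10 genes on each side of 0, 1 past 1.5-fold upward and 2 downward. Cdh2, the N-cadherin gene of epiblast, streak and neural tissue, read 980.3 and 2011.9 (1.0), with its other probe set at 1.14. Utf1, a chromatin-associated pluripotency factor, read 4192.4 and 2589.8 (-0.73), and Fgf15, a neural and epiblast FGF, 710.1 and 449.2 (-0.69). Within 1.5-fold and above 0 were the primed marker Fgf5 (3069.9 and 3576, ratio 0.19), the SoxC gene Sox4 (0.37), the TGF-beta family ligand gene Nodal (0.34), Myc (0.27) and the ETS factor gene Etv5 (0.17). Within 1.5-fold and below 0 were the SoxB1 gene Sox3 (-0.30), the forkhead gene Foxd3 (-0.20), the DNA methyltransferase genes Dnmt3a (-0.52) and Dnmt3b (-0.50) and the bHLH gene Tcf15 (-0.47). Although within 1.5-fold, Dnmt3a and Dnmt3b lay below the 5th percentile of the brightest signal class (-0.43). Tcf15 lay below that of the next class (-0.44), and Sox4 was at the 95th percentile of the brightest class (0.37). The kept probe sets of Dnmt3a disagreed in sign, from -0.52 to 0.53, as did those of Etv5, from -0.12 to 0.17. The other kept probe set of Dnmt3b was at -0.04.

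Markers of other cell types moved between the same arrays. All 13 measured primitive streak genes (of 14) were at least 1.5-fold higher, with a median of 2.23 and summed signals of 4034.1 in the control and 18496 with FGF10. They ran from Wnt3 (0.71) to Mixl1 (3.87), the others being Mesp2, Evx1, Chrd, Eomes, Fgf8, Lhx1, Gsc, Mesp1, Sp5, Foxa2 and Cer1, and the unmeasured gene was Tbx6 (38.4 and 63). The control signal of Cer1 (60.6) was under the filter, and raised to it the ratio was 2.65. Among all measured genes 5.41% passed 1.5-fold upward. The streak list, like the others, was chosen with earlier results of these data known, so its count is no independent finding. Visceral endoderm, which also expresses Otx2, had 4 of 19 marker genes higher and 6 lower, with a median of -0.16. The higher genes were Foxa2 and Cer1, shared with the streak list, Gata6 (0.96) and Sox17 (0.68), and the lower ones Apoa1 (-1.27), Hnf4a (-0.90), Cubn (-0.76), Ttr (-0.63), Sox7 (-0.61) and Dab2 (-0.59). The kept probe sets of Hnf4a disagreed in sign, from -0.90 to 0.15. With the filter at the 75th percentile 2 genes of this list were higher and 2 lower, and without _x_at, _s_at and _a_at probe sets 3 were lower. The visceral endoderm sum was 30887.9 in the control and 29201.9 with FGF10. No marker of either list read 0, nor could one, as the lowest signal on each array was 0.1. Their part in the readings of Otx2, the Zic genes and Pou3f1 was not tested.

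Naive and core pluripotency genes had a median of -0.28 over 15 measured genes, with 0 past 1.5-fold upward and 4 downward. With the filter at the 75th percentile the median was 0.03 and 2 genes were lower. With second brightest probe sets 1 gene was higher and 5 lower, and without _x_at, _s_at and _a_at probe sets 1 was higher and 4 lower. The kept probe sets of Klf5 disagreed in sign, from -0.28 to 0.69. Fgf4 (-1.56), Dppa3 (-1.07), Zfp42 (-0.71) and Nr0b1 (-0.71) were the lower ones. Pou5f1 (0.07), Nanog (0.22) and Sox2 (-0.0026) were within 1.5-fold.

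**Figure D3:**
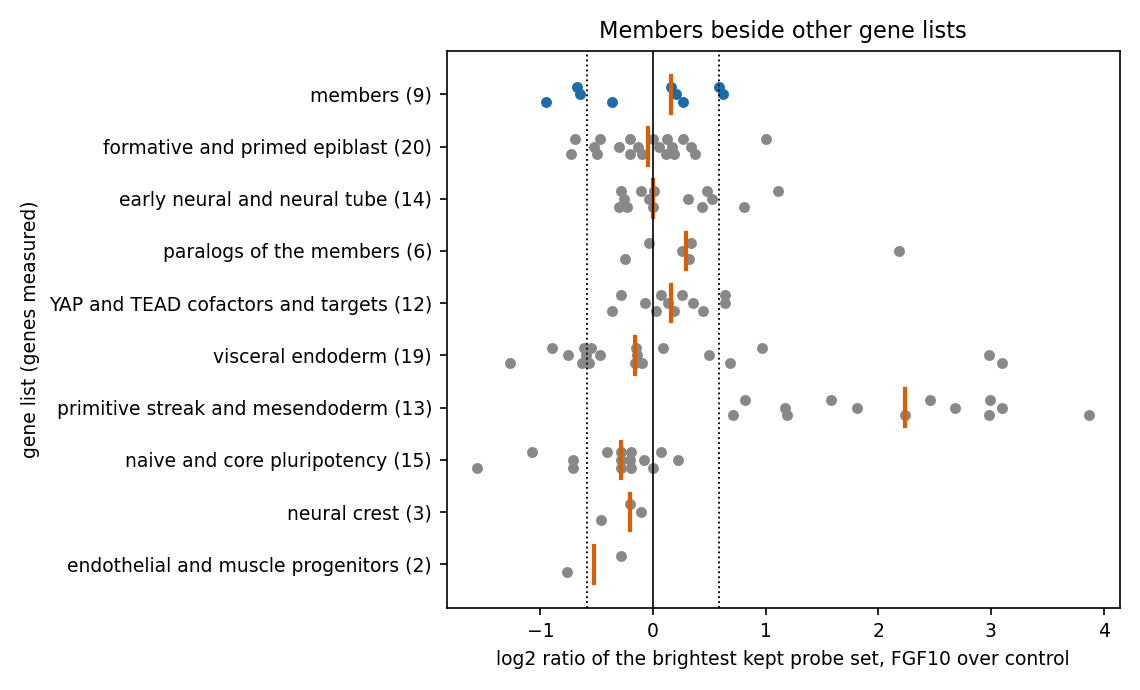
Log2 ratio (FGF10 over control) of the brightest kept probe set of each measured gene, as points, for the 9 members (blue) and 9 other gene lists (grey), with each list's median as an orange bar and dotted lines at 1.5-fold. The members spread to both sides of 0 around a median of 0.16, as the 20 other formative and primed epiblast genes do around -0.05, while all 13 primitive streak genes lie above 1.5-fold. The lists were chosen with earlier results of these data known.

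Across the processing settings tried, the sign held for every member but Nes, wherever a setting gave a value. For members with 1 kept probe set, several settings repeat the main value. Zic5 ran from 0.50 to 0.71 and Zic2 from 0.54 to 0.63. Pou3f1 ran from -0.86 to -0.58 and Sall2 from -0.36 to -0.32. Otx2 ran from 0.20 to 0.31 and Tead2 from 0.16 to 0.20. The widest range belonged to Pax6, from -0.97 to -0.44, and En2 ran from -0.68 to -0.54. Nes ran from -0.01, on its second probe set after centring, to 0.30.

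**Figure D4:**
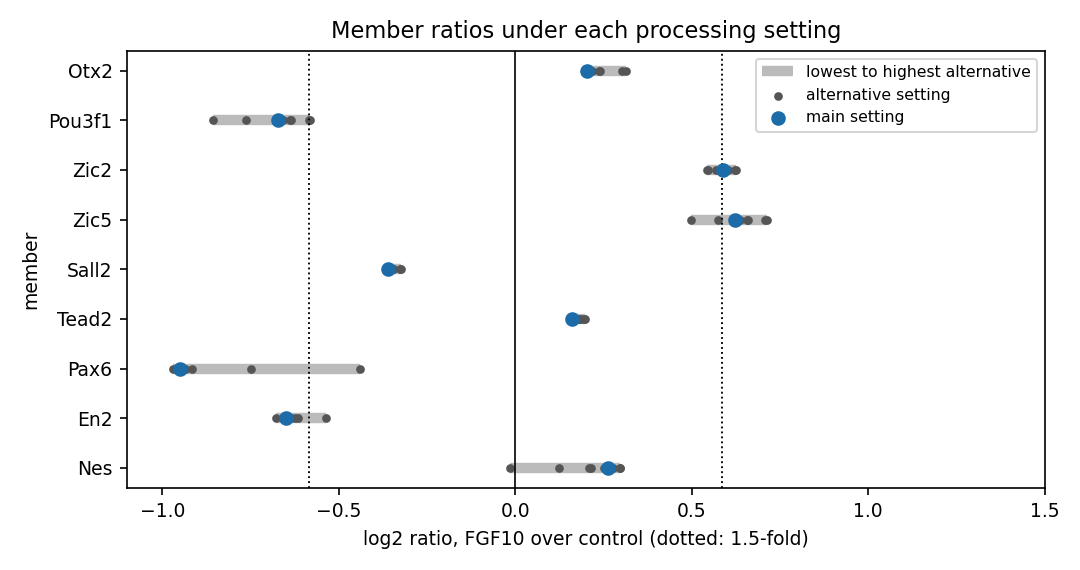
Log2 ratio (FGF10 over control) of each member at the main setting (blue) and at each alternative setting that gave it a value (small grey points), with the range of the alternatives as a grey bar and dotted lines at 1.5-fold. Every range except that of Nes stays on its side of 0, while those of Zic2, Zic5, Pou3f1, En2 and Pax6 cross a 1.5-fold line.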

How the data were processed

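Biotin-labelled target from total RNA went onto 1 Affymetrix array per group, per the labels' protocols. Groups come from the sample titles. The deposited intensity values are MAS5 signal, per the submitters' processing notes; version, settings and detection calls are not given in the sources used here. Trimmed by 2% at each end, both deposited columns average 500.003, as after scaling to a shared target, so ratios do not reflect total RNA.

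Names came from the platform annotation, which gives 34945 probe sets exactly 1 gene. Log2 ratios had no offset and were centred on the median kept probe set (0.034). A gene took its brightest kept probe set. Differences were counted at a fixed 1.5-fold or 2-fold, with no test. Work was done in Python 3.11.15 with pandas 2.3.3 and statsmodels 0.14.6, and tested on simulated data. Members, gene lists and thresholds were chosen with earlier results of these data known. From each list, every gene past 1.5-fold, up to 3 of its brightest others and all measured paralogs could be named; other list genes named, and neighbours within 2 places in the gene table, were chosen after the files were seen. Motif matches were found by exact letters.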

Additional observations from a re-analysis of the deposited data

How the results depend on the processing

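The count of members at least 1.5-fold higher was 2 at the main setting and 1 after quantile normalization, after loess, with an offset at the 25th percentile, with the mean over probe sets and with the second brightest probe set. The count at least 1.5-fold lower was 3 at the main setting. It was 2 after quantile normalization, after loess, with the offset and with dim signals raised to the filter. Pou3f1 was just within 1.5-fold after quantile normalization and loess (-0.58 in both). En2 was within it with the offset (-0.54), and Pax6 with raised signals (-0.44). The lower count was 1 with the filter at the 75th percentile or on both arrays, which leave out Pax6 and En2. With a 2-fold threshold both counts were 0. Of 94 member ratios recomputed under alternatives, 91 moved by less than the technical SD, 3 by more and 0 called ratios changed sign. The 3 were Pou3f1 (-0.86) and Nes (-0.01) on their second probe set and Pax6 (-0.44) with dim signals raised to the filter. Many of the alternatives could hardly move a ratio, so the 91 are a weak check. Only 3 members have more than 1 kept probe set, and for the others the mean and second brightest settings repeat the main value. Changing the filter shifts a member's ratio only through the centring. Of 198 list counts, 172 stayed within 1.5 times the main count and 26 did not. Several main counts are 0, and counts that stayed at 0 are among the 172, so these are a weak check too. No paired analysis was possible because each group has 1 array. Pax6 and En2 have an FGF10 signal under the filter, and the number of arrays limits every value.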
